A study of Mus musculus with 9 samples.

Results

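The genes of the mitochondrial respiratory chain and of the ATP synthase were followed in spermatogonial stem cells (SSC) and in induced pluripotent stem cells made from SSC (SSCiPSC) or from fetal fibroblasts (fiPSC). Members were the protein-coding genes whose GRCm38 symbol begins with Nduf, Uqc, Cox4 to Cox8 or Atp5, with Sdha, Sdhb, Sdhc and Sdhd. They number 96 symbols of 21924 protein-coding gene symbols in the annotation. Of these, 71 had a locus of their own in the deposited table, as had 10344 protein-coding genes in all. The testis isoforms Cox6b2 and Cox7b2 were kept apart from the counts, which left 69 genes.

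All cells carried the alleles Gt(ROSA)26Sortm1(rtTA*M2)Jae and Col1a1tm3(tetO-Pou5f1,-Sox2,-Klf4,-Myc)Jae/J, so that doxycycline switches on Pou5f1, Sox2, Klf4 and Myc through the rtTA activator. The 3 SSC libraries came from cells of postnatal day 6 testis that were selected on magnetic beads for the surface receptor Gfra1 and were not passaged. The 3 SSCiPSC and 3 fiPSC libraries came from lines grown from picked colonies, purified for SSEA1 and labelled passage 10 to 11. According to the methods doxycycline had been withdrawn, while the labels give LIF and DOX for the culture medium, and fibroblasts themselves were not among the libraries.

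The respiratory chain moves electrons from NADH and succinate through complexes I, II, III and IV to oxygen while protons are pumped across the inner mitochondrial membrane, and the ATP synthase, complex V, uses the proton gradient to make ATP. Nearly all subunits are encoded in the nucleus, while a core set is encoded in mitochondrial DNA, which is not analysed here. Pluripotent cells are known for active glycolysis beside respiration, and the male germ line for using its own isoforms of several mitochondrial proteins.

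Values are FPKM, fragments per kilobase of transcript scaled to the depth of the library, as deposited for each locus. SSC libraries were shallower. Their estimated depths, in units of 1000000 fragments, were 1.77, 4.62 and 1.38 in replicates 1, 2 and 3, while the iPSC libraries lay between 13.3 and 17.6. One fragment per kilobase thus stood for 0.566, 0.216 and 0.723 FPKM in SSC and for no more than 0.0754 in iPSC. A difference between groups was called at an adjusted p below 0.05 from limma on log2(FPKM + 1), fitted over all loci that reached 1 FPKM in 3 or more of the 6 libraries compared. Nothing in the labels says whether the libraries of a group came from separate animals, so the p-values measure the spread between these libraries.

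The labelled cell types were checked against their markers. Summed FPKM of 11 of 12 spermatogonial markers was 597, 738 and 502 in SSC and from 214 to 338 in iPSC. Dazl led the list in SSC with 194, 263 and 174 FPKM and was at 15.3 to 42.3 in iPSC, whereas Etv5 (28.9 to 38.8 in SSC, 94 to 143 in iPSC) and Kit (8.86 to 10.1 and 23.9 to 48.4) were higher in iPSC, where Etv5 led. Gfra1 itself was at 37.7, 34.1 and 23.9 FPKM in SSC and at or below 0.171 in every iPSC library. Of 10 pluripotency markers 7 had a locus, and their sum was 55.3, 59.7 and 64.5 in SSC and from 1530 to 1990 in iPSC, with Nanog at 0 in every SSC library. Klf4 was the most abundant of them in SSC. Fut4, also on this list, was the other way round, with 0.577, 0.735 and 1.29 FPKM in SSC and at most 0.0772 in iPSC.

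The SSC libraries also held markers of other testis cells. Sertoli markers (7 of 10 with a locus, led by Clu) summed to 1210, 1210 and 1020 FPKM in SSC and to between 170 and 303 in iPSC, where nearly all of the sum was Rhox5 (162 to 296, against 1.03 to 1.98 in SSC). Clu was at 538 to 713 FPKM in SSC and at most 6.91 in iPSC, and Cst12 and Defb19 were at 0 in every iPSC library. Leydig markers (3 of 7, led by Cyp11a1) summed to 160, 124 and 236 in SSC but stayed at or under 0.358 in iPSC. Mast cell markers (5 of 6, led by Tpsab1) summed to 107, 425 and 1180 in SSC, with 0.0806 the highest iPSC sum. Peritubular myoid markers (4 of 5, led by Acta2) summed to 85.8, 76.9 and 70.2 in SSC and fibroblast or feeder markers (7 of 7, led by Col3a1) to 69.3, 64.3 and 199. Macrophage markers (4 of 5, led by Csf1r) summed to 17.7, 7.52 and 61.8 and later germ cell markers (2 of 7, led by Sycp1) to 37.3, 43.9 and 31.6. In iPSC these 4 sums were at most 12.5, 36.6, 14.2 and 15.5. Endothelial markers (5 of 5, led by Pecam1) summed to 55.7 to 114 in SSC and 83.4 to 127 in iPSC. Most of the iPSC sum was Pecam1 (79.6 to 125), while Cdh5 (12.6 to 27.2 in SSC), Kdr (9.06 to 15.6) and Emcn (2.61 to 7.52) were at most 0.103 in iPSC. The 1 of 5 skeletal muscle markers with a locus, Mylpf, was at 1.73 or lower in SSC and at 75.5 to 130 in iPSC. The Sertoli, Leydig, mast cell, myoid, fibroblast or feeder and later germ cell sums, the level of Mylpf and these endothelial markers other than Pecam1 move with every difference between SSC and iPSC given here, and their part in it was not tested. In such bulk samples fewer cells of a type and less RNA per cell cannot be told apart.

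Genes of the respiratory chain and ATP synthase were, with few exceptions, higher in SSCiPSC than in SSC. Of the 68 genes tested, 63 were called higher and 0 lower by limma, against 26.2% of all 36544 loci tested called higher and 24.1% called lower. Among protein-coding genes by their own locus 34.3% were called higher and 28.8% lower. At an unadjusted p below 0.05, 65 genes passed, all of them higher in SSCiPSC, and so did 20628 of all 36544 loci in either direction. The median log2 fold change of the genes was 1.32, beside 0.11 over all loci tested. In 65 of the 68 the lowest SSCiPSC library lay above the highest SSC library, as it did in 31.1% of all loci. In 1 of the 68, Atp5l, which was not called, the groups lay apart in the other direction, as in 28.7% of all loci.

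In fiPSC most of these genes were higher as well. Against SSC, 61 of 68 were called higher and 0 lower, beside 28% and 23.7% of all 38007 loci tested and 35.5% and 30.2% of protein-coding genes by their own locus. In 63 of the 68 all fiPSC libraries lay above all SSC libraries, against 33.1% of all loci, and in 0 all lay below, against 28.5%. The median log2 fold change was 1.14, beside 0.17 over all loci. Both comparisons use the same SSC libraries, so they are not independent. Called higher in both were 61 genes, Atp5mpl and Sdhc were called in SSCiPSC only, and 6 genes were called in neither (Atp5l, Cox4i2, Cox8b, Ndufa9, Ndufs5 and Ndufv1, of which Cox8b was too low to be tested).

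**Figure D1:**
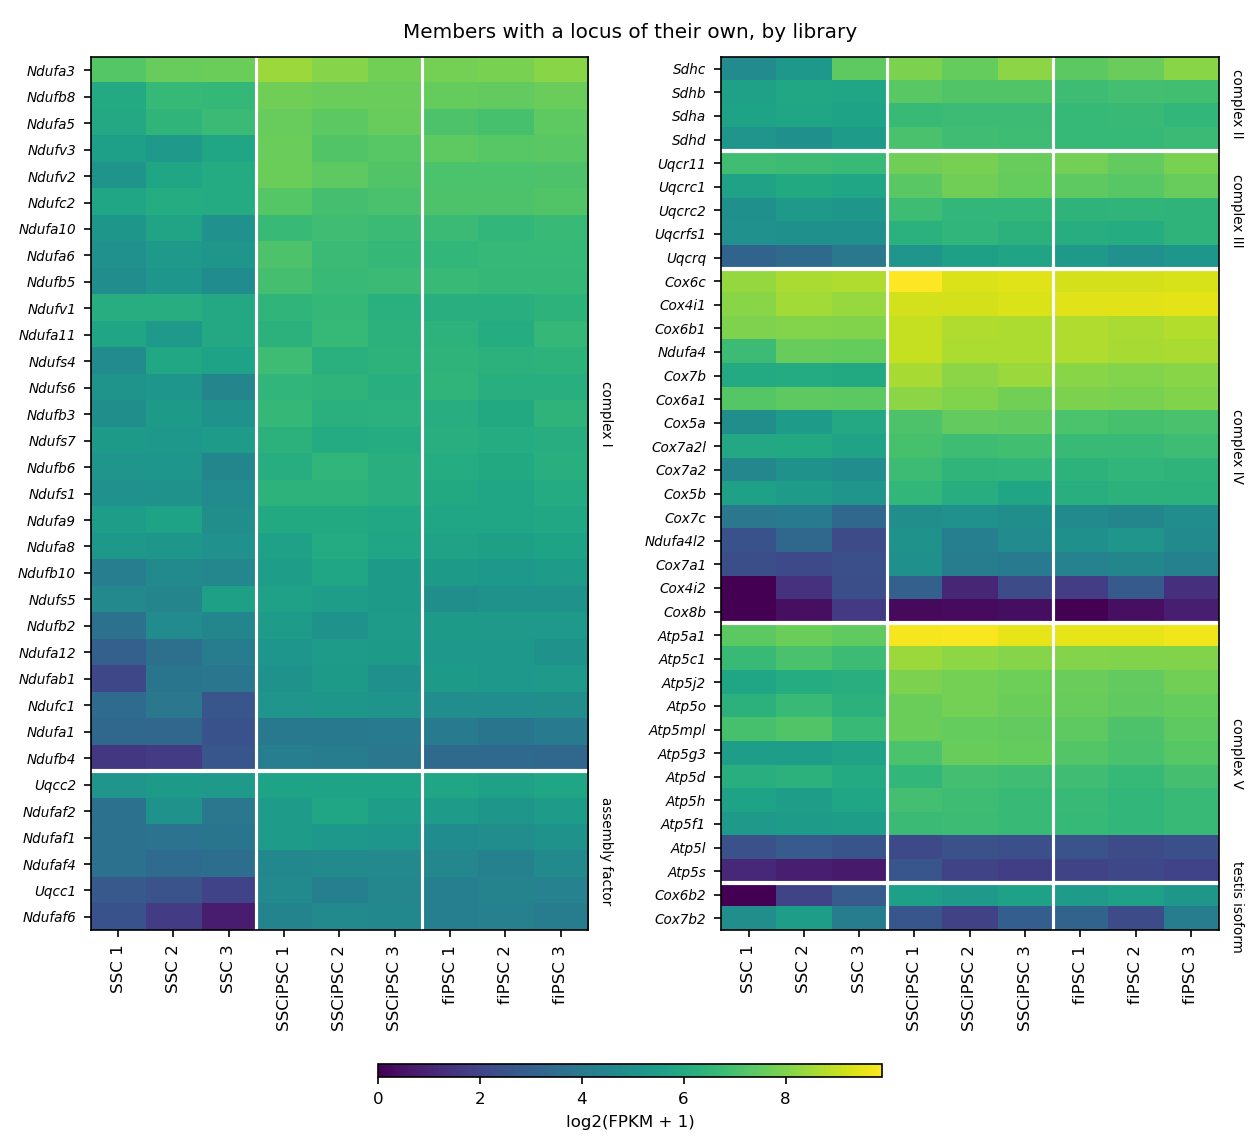
Heat map of log2(FPKM + 1) for genes with a locus of their own (rows, 1 gene not shown, grouped by complex and ordered by mean level) in 9 libraries (columns), with white lines between groups and between complexes. Most rows are darker, that is lower, in the 3 SSC columns than in the 6 iPSC columns, whereas Atp5l and Cox8b show little contrast and Cox7b2 is darker in most iPSC columns.

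Quantile normalization and a correction for length changed the counts against SSC by over 1.5 times. With quantile normalization 37 genes were higher and 5 lower in SSCiPSC than in SSC (the 5 were Cox4i1, Cox6a1, Cox6b1, Ndufa3 and Ndufv1), and the median log2 fold change was 0.82. When the trend of fold change with annotated transcript length was removed, 40 were higher and 5 lower (Atp5l, Atp5mpl, Cox6a1, Ndufa3 and Uqcc2), with a median of 0.75. For fiPSC against SSC these counts were 38 and 6 with quantile normalization and 40 and 8 after the length correction. The medians there were 0.74 and 0.53. Median-ratio scaling, in contrast, raised the median over all loci from 0.11 to 0.29 and from 0.17 to 0.35, with 65 genes higher and 0 lower in each comparison. With quantile normalization the median over all loci was 0.053 for SSCiPSC and 0.045 for fiPSC against SSC. The shares of all loci called under these settings are not given here, so these counts cannot be set against them.

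Fold changes of other genes varied with transcript length, and 32 of the members compared by length were shorter than 1000 bases. Among other protein-coding genes with a mean of at least 10 FPKM, the median log2 fold change of SSCiPSC against SSC was 1.14 for 224 genes with a transcript under 1000 bases, 0.84 for 943 genes from 1000 to 2000, 0.48 for 2101 from 2000 to 4000 and -0.01 for 2064 longer ones. Members shorter than 1000 bases had a median of 1.10 (32 genes), that is no more than other short genes, although 31 of the 32 were called higher against 65.6% of the other short genes. For members from 1000 to 2000 bases the median was 1.63 (22 genes) and from 2000 to 4000 it was 1.41 (9 genes). In fiPSC against SSC the members' medians in these bins were 0.97, 1.35 and 1.31 beside 1.03, 0.78 and 0.35 in the other genes. The part of transcript length in the differences was not tested further. These bins were chosen after seeing the data.

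**Figure D2:**
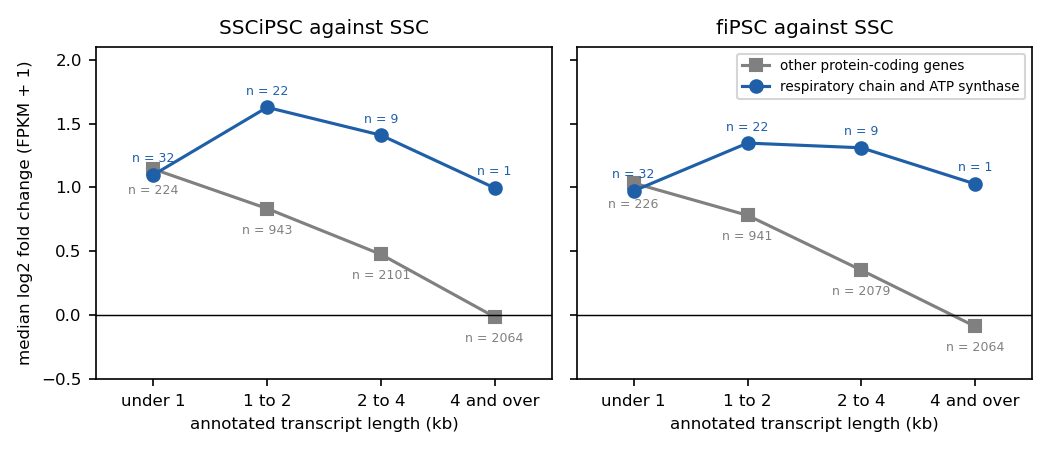
Median log2 fold change of FPKM + 1 (y axis) by annotated transcript length in kb (x axis) for members (circles) and other protein-coding genes (squares) with a mean of at least 10 FPKM, with the number of genes at each point. Both lines start together under 1 kb and part above it, where the members stay at 0.97 or more while the other genes fall to about 0; the bins of members from 2 kb on hold 9 genes and 1 gene.

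Complex I, which oxidizes NADH and passes the electrons to ubiquinone, gave 28 of the 71 genes. In SSCiPSC 25 were called higher than in SSC, 0 lower and 3 were not called, and in fiPSC the counts were the same. Among the core subunits that carry the flavin and the iron-sulfur clusters, Ndufs1, the large iron-sulfur subunit of the NADH-oxidizing arm, was at 31.4, 32.0 and 26.1 FPKM in SSC, at 84.3, 84.0 and 72.6 in SSCiPSC and at 63.7, 56.3 and 67.2 in fiPSC. All iPSC libraries lay above all SSC libraries, with a log2 fold change of 1.40 ± 0.14 (SE, n = 3 and 3, limma adjusted p = 0.00044) for SSCiPSC and 1.04 ± 0.13 (adjusted p = 0.000897) for fiPSC.

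Ndufv2, a flavoprotein partner with an iron-sulfur cluster, was at 34.0, 55.7 and 66.6 FPKM in SSC and at 148 to 204 in SSCiPSC (log2 fold change 1.76 ± 0.27, limma adjusted p = 0.00205), and Ndufs7, another iron-sulfur subunit, rose by 0.81 ± 0.13 (adjusted p = 0.00291), a call lost with quantile normalization (0.21, adjusted p = 0.3) and after the length correction (0.041, adjusted p = 0.807). Ndufv1, which binds NADH and the flavin, was a core subunit that was not called. Its values were 70.1, 69.7 and 61.7 FPKM in SSC, 88.2, 94.6 and 77.6 in SSCiPSC and 73.5, 72.2 and 82.4 in fiPSC. The log2 fold change was 0.36 ± 0.13 (limma adjusted p = 0.0567) in SSCiPSC and 0.18 ± 0.10 (adjusted p = 0.208) in fiPSC, and the side of the threshold depended on the setting. In SSCiPSC, Ndufv1 was called higher with median-ratio scaling (0.60, adjusted p = 0.016), all 9 libraries (0.0245), 1 locus per gene (0.0396), a mean of at least 5 FPKM (0.0467) and a pseudocount of 0.1 (0.0482), but lower with quantile normalization (-0.39, adjusted p = 0.0419), and it was at -0.15 (adjusted p = 0.298) after the length correction. In fiPSC it was called higher with median-ratio scaling (0.41, adjusted p = 0.0275) and lower with quantile normalization (-0.45, adjusted p = 0.0141) and the length correction (-0.33, adjusted p = 0.0152).

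The accessory subunits of complex I, which surround the core and are needed to build and hold it together, ranged more widely. Ndufb4 had the largest fold change of the complex in SSCiPSC, from 2.04, 2.34 and 5.22 FPKM in SSC to 18, 16.9 and 14.3 (log2 fold change 2.12 ± 0.32, limma adjusted p = 0.00192), with 9.62, 9.54 and 8.98 in fiPSC. With no library left out Ndufab1, the mitochondrial acyl carrier protein, had the largest in fiPSC (2.05 ± 0.48, adjusted p = 0.0122). It was at 3.39, 13.5 and 13.6 FPKM in SSC and 40.9, 38.1 and 39.0 in fiPSC, and its fold change ranged from 1.47 to 2.34 over 20 alternatives. Both genes have an annotated pseudogene copy that is at least 95% identical over at least 150 bases and each shares its interval with other loci, so their levels are less certain. Intervals are also shared for Ndufs1, Ndufs6, Ndufa11, Ndufb5 and Ndufc1 of complex I, Sdha and Sdhd, Cox7a2l, and Atp5c1, Atp5f1, Atp5l and Atp5s, and for each the locus with the highest mean was used. The small accessory subunit Ndufa3 was at 154, 191 and 201 FPKM in SSC but at 341, 270 and 222 in SSCiPSC, a log2 difference of 0.59 ± 0.20 (adjusted p = 0.0443) that turned negative with quantile normalization and after the length correction. The call of Ndufa3 was also lost with the replicate block (adjusted p = 0.0943), without a trend in limma (0.08), with a pseudocount of 0.1 (0.0506), with no filter (0.0557), and without any of the SSC libraries or SSCiPSC replicate 1 or 2 (0.0585 to 0.123).

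Ndufs5, a small accessory subunit, and Ndufa9, a larger one, were the other complex I genes not called against SSC. Ndufs5 was at 24.3, 21.4 and 47.7 FPKM in SSC, 49.8, 44.5 and 41.5 in SSCiPSC and 29.5, 32.1 and 32.9 in fiPSC. The SSC library of replicate 3 stood above the other SSC libraries and within the range of the iPSC libraries, and without it the SSC libraries lay below all iPSC libraries. Ndufs5 in fiPSC against SSC was called higher without SSC replicate 3 (0.45, adjusted p = 0.0273) and lower after the length correction (-0.79, adjusted p = 0.0327). For Ndufa9 the values were 44.5, 52.4 and 28.4 in SSC and 55.0 to 64.1 in the iPSC libraries, which did not overlap with SSC.

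Complex II, the succinate dehydrogenase, links the citric acid cycle with the chain, holds 4 subunits and is encoded wholly in the nucleus. All 4 were called higher in SSCiPSC and 3 in fiPSC. The flavoprotein Sdha, which oxidizes succinate, was at 52.7, 54.9 and 51.8 FPKM in SSC, 104, 110 and 110 in SSCiPSC and 96.8, 103 and 93.6 in fiPSC. The replicates of each group were close together, with a log2 fold change of 1.01 ± 0.11 (limma adjusted p = 0.00054) in SSCiPSC and 0.87 ± 0.09 (adjusted p = 0.000459) in fiPSC. Both calls of Sdha were lost with quantile normalization (0.27, adjusted p = 0.0821, and 0.25, adjusted p = 0.0946). The iron-sulfur subunit Sdhb rose by 1.46 ± 0.13 (adjusted p = 0.00029) and 1.09 ± 0.11 (adjusted p = 0.000398).

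The membrane anchor Sdhd was at 34.6, 30.2 and 41.9 FPKM in SSC, at 131, 116 and 111 in SSCiPSC and at 98.0, 97.4 and 105 in fiPSC, that is 1.73 ± 0.16 (limma adjusted p = 0.00033) and 1.48 ± 0.14 (adjusted p = 0.000341) higher on the log2 scale. The other anchor, Sdhc, was at 26.4, 37.9 and 172 FPKM in SSC, 247, 186 and 290 in SSCiPSC and 169, 200 and 278 in fiPSC. The SSC library of replicate 3, which also had the highest mast cell, macrophage and fibroblast sums, lay at the level of the iPSC libraries, and the part of those cells was not tested. The call for SSCiPSC (2.06 ± 0.66, adjusted p = 0.0396) was lost without SSC replicate 1 (adjusted p = 0.0958), SSC replicate 2 (0.111) and each of the SSCiPSC libraries (0.0805 to 0.114), with quantile normalization (0.214) and with a pseudocount of 0.1 (0.0522). Without SSC replicate 3 the value for SSCiPSC was 2.86 (adjusted p = 0.000906). For fiPSC the value (1.90 ± 0.68, adjusted p = 0.0578) passed the threshold without SSC replicate 3 (2.7, adjusted p = 0.00118) and, with adjusted p from 0.0195 to 0.0367, with median-ratio scaling, all 9 libraries, the replicate block, 1 locus per gene and the length correction.

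The bases before the start of Sdha and Sdhd are shown because the members were also compared with all promoters for 4 short motifs. RefSeq GRCm38.p6 windows from 250 bases before to 50 after the start were found for 77 of the 96 genes (82 windows). Those of 19 genes, among them Atp5a1, Cox4i1, Ndufs1, Sdhc and Uqcrc2, were not matched. Motifs were searched on both strands, and matches may overlap. The 150 bases before the start are printed 5′ to 3′ on the strand of the gene, for Sdha chr13:74350241-74350390 and for Sdhd chr9:50603850-50603999, both on the minus strand. Capitals mark CGCANGCGC, a core of the motif of the factor Nrf1, and CCGGAAG, a core of the motif of ETS factors such as Gabpa, or their reverse complements.
Sdha: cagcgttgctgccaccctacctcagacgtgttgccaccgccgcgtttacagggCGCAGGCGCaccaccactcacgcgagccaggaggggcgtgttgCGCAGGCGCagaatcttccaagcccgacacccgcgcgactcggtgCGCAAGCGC
Sdhd: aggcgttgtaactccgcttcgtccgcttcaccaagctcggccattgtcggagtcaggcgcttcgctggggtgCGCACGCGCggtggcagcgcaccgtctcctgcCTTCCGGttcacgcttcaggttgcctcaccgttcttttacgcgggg
Sdha holds 3 matches of the Nrf1 letters in these bases, and Sdhd holds 1 of each kind and, after its start, 1 match of the estrogen-related receptor letters described next.

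Of the 82 member windows, 27 (32.9%) held CGCANGCGC, against 6.31% of all 32851 promoter windows and 16.4% of the 5459 windows of protein-coding genes with a mean of at least 10 FPKM. For CCGGAAG the shares were 22%, 8.86% and 19.5%, but among the 60 windows of members with a locus of their own 9 (15%) held it, a share under that of the expressed genes. The letters ATGGCGG, a core of the motif of Yy1, were in 15.9%, 4.05% and 9.18%, and TCAAGGTCA, a motif of the estrogen-related receptors such as Esrrb, in 2.44%, 0.423% and 0.147%, which is 2 member windows. Of those 60 windows 38.3% held CGCANGCGC, 11.7% ATGGCGG and 3.33% TCAAGGTCA. A match is a description of the letters and not a bound site.

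Complex III passes electrons from ubiquinol to cytochrome c. All 5 genes with a locus of their own were called higher in both kinds of iPSC. Uqcrc1, a core protein on the matrix side, was at 51.1, 63.0 and 54.8 FPKM in SSC, 162, 216 and 188 in SSCiPSC and 172, 157 and 190 in fiPSC. Its log2 fold change was 1.72 ± 0.15 (limma adjusted p = 0.000308) in SSCiPSC, and that of its partner Uqcrc2 was 1.49 ± 0.15 (adjusted p = 0.000468). Uqcrfs1, the Rieske iron-sulfur protein, was at 30.8, 29.9 and 30.6 FPKM in SSC but at 78.6, 91.2 and 80.8 in SSCiPSC, with no overlap. The small subunit Uqcrq changed most, by 2.0 ± 0.27 (adjusted p = 0.00123) in SSCiPSC, and Uqcr11 least, by 0.97 ± 0.13 (adjusted p = 0.00125), with values below 0 for Uqcr11 after quantile normalization and after the length correction.

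Complex IV, the cytochrome c oxidase, reduces oxygen to water. Of its 15 genes with a locus of their own 14 were tested, and 13 were called higher in SSCiPSC and 13 in fiPSC. It held the most abundant members in SSC, Cox6c with 381 ± 49.1 FPKM (SD, n = 3) and Cox4i1 with 328 ± 43.0, whose ranges overlapped. In iPSC Cox4i1 was at 599, 611 and 650 FPKM in SSCiPSC and at 692, 700 and 710 in fiPSC. The log2 fold change of Cox4i1, which takes part in the regulation of the enzyme by ATP, was 0.92 ± 0.14 (limma adjusted p = 0.0023) and 1.10 ± 0.13 (adjusted p = 0.000753), both below 0 with quantile normalization, and the SSCiPSC call was lost after the length correction (0.05, adjusted p = 0.713).

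Cox7b had the largest fold change of complex IV in SSCiPSC. This small membrane subunit was at 65.1, 67.0 and 63.9 FPKM in SSC, 389, 285 and 337 in SSCiPSC and 279, 263 and 281 in fiPSC. The log2 fold change was 2.34 ± 0.14 (limma adjusted p = 0.000112) in SSCiPSC and 2.06 ± 0.08 (adjusted p = 3.71e-05) in fiPSC. Cox7b has 2 annotated pseudogene copies. Of the 71 genes 15 have a pseudogene copy. Cox6c, Atp5c1, Atp5o, Uqcr11 and Ndufs5 are also among them, which leaves their levels less certain. Cox5a, a nuclear-encoded subunit on the matrix side, rose from 29.0, 43.0 and 62.0 FPKM to 137, 184 and 180 in SSCiPSC, while its neighbour Cox5b rose by 0.76 ± 0.22 (adjusted p = 0.0289) and was at -0.06 after the length correction. The call of Cox5b was also lost with quantile normalization (0.15, adjusted p = 0.615) and without SSC replicate 2 or 3 or SSCiPSC replicate 1 or 2 (adjusted p = 0.0678 to 0.081). Cox6a1, at 154, 171 and 167 FPKM in SSC against 288, 260 and 218 in SSCiPSC, changed least of the complex IV genes called, by 0.63 ± 0.14 (adjusted p = 0.0107), and lay below 0 with quantile normalization and after the length correction.

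Complex IV is also the complex with tissue isoforms. Cox7a1, the isoform of heart and skeletal muscle, was at 4.26, 3.54 and 4.36 FPKM in SSC, 30.2, 17.1 and 16.4 in SSCiPSC and 20.1, 22.5 and 19.1 in fiPSC. Its log2 fold change was 2.09 ± 0.27 (limma adjusted p = 0.00112) and 2.1 ± 0.15 (adjusted p = 0.000166). The widespread isoform Cox7a2 rose beside it, by 1.76 ± 0.17 (adjusted p = 0.000381) in SSCiPSC, and Cox7a1 made up 13.0% ± 2.98 of the pair in SSC, 17.8% ± 3.62 in SSCiPSC and 19.3% ± 0.897 in fiPSC (SD, n = 3), so that the shares of SSC and SSCiPSC overlapped. Ndufa4l2, a homologue of the complex IV subunit Ndufa4 known from hypoxia, was at 4.68, 8.94 and 3.99 FPKM in SSC, 31.5, 18.1 and 26.2 in SSCiPSC and 30.4, 34.8 and 25.2 in fiPSC, a log2 fold change of 1.97 ± 0.33 (adjusted p = 0.0032) and 2.23 ± 0.29 (adjusted p = 0.00118). Ndufa4 was at 110, 193 and 185 in SSC and at 390 to 521 in iPSC.

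Other tissue isoforms were low. The lung isoform Cox4i2 was at 0, 1.66 and 4.15 FPKM in SSC, 7.24, 1.10 and 3.73 in SSCiPSC and 2.43, 6.04 and 1.49 in fiPSC, with overlap between all groups. The muscle isoform Cox8b reached 2.17 FPKM in SSC replicate 3 and no more than 0.777 in any other library. Cox6a2 and the testis isoform Cox8c had no locus on their strand, and Cox8a, the widespread partner of Cox8b, lay only in a locus shared with other genes.

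The 2 testis isoforms with a locus moved in opposite directions. Cox7b2 was at 28.4, 45.3 and 17.1 FPKM in SSC, 5.20, 2.74 and 6.82 in SSCiPSC and 7.92, 3.97 and 17.4 in fiPSC. It was lower in SSCiPSC by a log2 fold change of -2.36 ± 0.42 (limma adjusted p = 0.00402). In fiPSC (-1.64 ± 0.55, adjusted p = 0.0471) replicate 3 overlapped with SSC, and only 11 of 20 alternatives gave an adjusted p below 0.05. The call was lost in the others, among them the replicate block (adjusted p = 0.0999) and those without SSC replicate 1 or 2 or fiPSC replicate 1 or 2 (0.102 to 0.13). Cox7b2 made up 30.6% ± 9.62 of the pair with Cox7b in SSC, 1.42% ± 0.521 in SSCiPSC and 3.36% ± 2.23 in fiPSC (SD, n = 3).

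Cox6b2 went the other way. It was at 0, 3.13 and 6.18 FPKM in SSC, 46.9, 39.3 and 49.8 in SSCiPSC and 41.7, 49.3 and 36.8 in fiPSC, with a wide gap between SSC and iPSC. The log2 fold change was 3.90 ± 0.69 (limma adjusted p = 0.00384) in SSCiPSC and 3.81 ± 0.70 (adjusted p = 0.0048) in fiPSC, and all 20 alternatives of each called it. The size of the change in Cox6b2 is less certain, with values from 2.92 after the length correction to 5.16 with a pseudocount of 0.1 in SSCiPSC and from 2.86 to 5.07 under the same settings in fiPSC. For Cox6b2, SSCiPSC against SSC gave 3.08 without SSC replicate 1, in which it was listed at 0, and 4.50 without SSC replicate 3. For Cox6b2, fiPSC against SSC gave 2.99 and 4.41. Cox6b2 also shares its interval with another locus, so its level is less certain. Its share of the pair with Cox6b1, the widespread isoform, was 1.15% ± 1.15 in SSC, 9.23% ± 1.45 in SSCiPSC and 9.33% ± 1.53 in fiPSC. Cox6b1 itself rose by 0.78 ± 0.14 (adjusted p = 0.00439) and 0.67 ± 0.09 (adjusted p = 0.00141), below 0 with quantile normalization and after the length correction. In fiPSC both settings called Cox6b1 lower (-0.47, adjusted p = 0.00731, and -0.25, adjusted p = 0.0267).

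**Figure D3:**
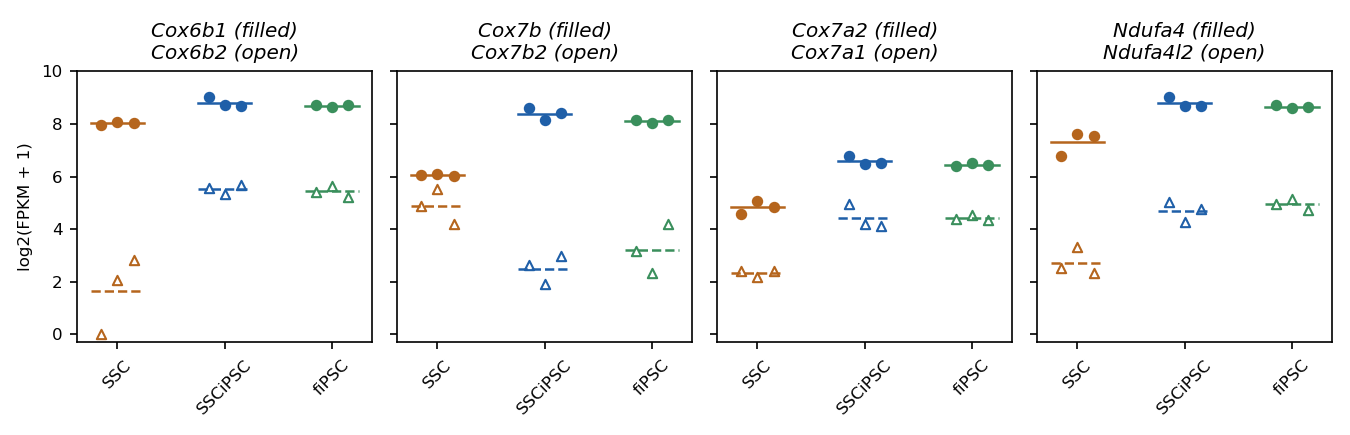
log2(FPKM + 1) of 4 isoform pairs (y axis) in the 3 libraries of each group (x axis), with the widespread isoform as filled circles, the tissue isoform as open triangles and the mean of each group as a line. Cox6b2 lies at 6.18 FPKM or lower in SSC and at 36.8 or higher in iPSC, whereas Cox7b2 falls from SSC to SSCiPSC and the other isoforms rise.

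For these 2 pairs the 150 bases before the start are shown, on the strand of the gene and from the same RefSeq windows, for Cox6b1 chr7:30626115-30626264 (minus strand), Cox6b2 chr7:4753095-4753244 (minus), Cox7b chrX:106015550-106015699 (plus) and Cox7b2 chr5:71548206-71548355 (minus). Capitals mark the ETS letters on either strand, which Cox6b1 alone holds among these 4 windows, and neither the Nrf1 letters nor those of Yy1 or the estrogen-related receptors were found in the 4 windows.
Cox6b1: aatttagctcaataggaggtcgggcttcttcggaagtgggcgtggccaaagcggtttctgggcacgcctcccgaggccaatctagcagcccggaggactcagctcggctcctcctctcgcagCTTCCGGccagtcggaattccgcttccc
Cox6b2: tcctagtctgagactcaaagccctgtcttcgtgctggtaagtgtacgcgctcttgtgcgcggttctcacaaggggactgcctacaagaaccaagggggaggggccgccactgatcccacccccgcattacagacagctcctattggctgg
Cox7b: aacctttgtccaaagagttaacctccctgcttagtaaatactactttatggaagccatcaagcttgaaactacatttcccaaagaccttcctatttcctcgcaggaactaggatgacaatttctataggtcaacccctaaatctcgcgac
Cox7b2: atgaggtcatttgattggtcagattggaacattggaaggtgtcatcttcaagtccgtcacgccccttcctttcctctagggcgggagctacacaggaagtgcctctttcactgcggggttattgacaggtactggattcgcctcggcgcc

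In complex V, the ATP synthase, 10 of 11 genes were called higher in SSCiPSC and 9 in fiPSC. Atp5a1, the alpha subunit of the catalytic head, had the highest mean level of the members in both kinds of iPSC. It was at 167, 204 and 179 FPKM in SSC, 864, 894 and 743 in SSCiPSC and 744, 736 and 821 in fiPSC. The log2 fold change was 2.18 ± 0.14 (limma adjusted p = 0.000129) in SSCiPSC and 2.06 ± 0.12 (adjusted p = 9.14e-05) in fiPSC, and all 20 alternatives of each called it higher. Over these alternatives the value ranged from 0.95 to 2.42 in SSCiPSC and from 0.92 to 2.30 in fiPSC. The gamma subunit Atp5c1, the rotating shaft, rose by 1.38 ± 0.15 (adjusted p = 0.000656) and Atp5o, a part of the stalk that holds the head, by 1.27 ± 0.13 (adjusted p = 0.000537) in SSCiPSC. With quantile normalization both calls were lost (Atp5c1 0.31, adjusted p = 0.0801, and Atp5o 0.30, adjusted p = 0.0827).

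Atp5g3 encodes the c subunit of the proton-driven ring and was at 45.9, 44.4 and 50.9 FPKM in SSC, 137, 194 and 188 in SSCiPSC and 150, 133 and 159 in fiPSC (log2 fold change 1.84 ± 0.17 in SSCiPSC, limma adjusted p = 0.000336). The other 2 genes of the same c subunit, Atp5g1 and Atp5g2, had only loci that covered less than 50% of the gene. Atp5d, the delta subunit of the central shaft, changed least of the complex V genes called in SSCiPSC, from 75.4, 81.6 and 64.4 FPKM to 91.7, 122 and 115 (0.56 ± 0.16, adjusted p = 0.0267), and turned negative with quantile normalization and after the length correction. Its call was also lost without a trend in limma (adjusted p = 0.0629) and without SSC replicate 1 or 3 or SSCiPSC replicate 2 or 3 (0.0598 to 0.0983). The small subunit Atp5mpl was called in SSCiPSC (0.61 ± 0.16, adjusted p = 0.0174) but not in fiPSC (0.36 ± 0.16, adjusted p = 0.109), and the SSCiPSC call was lost without SSCiPSC replicate 1 (0.0585) or 3 (0.0541). In SSCiPSC, Atp5mpl was at -0.41 (adjusted p = 0.0762) with quantile normalization and called lower after the length correction (-0.35, adjusted p = 0.0458). In fiPSC it was called higher with median-ratio scaling (0.60, adjusted p = 0.0307) and lower with quantile normalization (-0.53, adjusted p = 0.0313) and the length correction (-0.57, adjusted p = 0.00661). Atp5l, a small membrane subunit, was at 4.51, 6.13 and 4.95 FPKM in SSC and at 3.6 to 4.85 in iPSC, and it is the one gene of the 71 with 5 or more pseudogene copies (8), so its level is uncertain.

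Assembly factors build the complexes and are not part of them. All 6 with a locus of their own were called higher in both kinds of iPSC. Ndufaf6, needed early in the assembly of complex I, was at 4.66, 2.37 and 0.744 FPKM in SSC, 21.3, 24.7 and 23.6 in SSCiPSC and 18.2, 18.8 and 17.1 in fiPSC. Its log2 fold change of 2.91 ± 0.42 (limma adjusted p = 0.00176) in SSCiPSC was the largest of the 68 with no library left out. It ranged from 2.19 to 3.44 over 20 alternatives. Ndufaf6 and Uqcc1 share their intervals with other loci, which leaves their levels less certain as well. Uqcc1, an assembly factor of complex III, rose by 2.09 ± 0.26 (adjusted p = 0.000905), the complex I factor Ndufaf4 by 1.08 ± 0.15 (adjusted p = 0.00135) and Uqcc2, also of complex III, by 0.42 ± 0.13 (adjusted p = 0.0296), with Uqcc2 below 0 with quantile normalization and after the length correction. The SSCiPSC call of Uqcc2 was also lost with the replicate block (adjusted p = 0.0636), without a trend in limma (0.0871), and without SSC replicate 1 or 3 or any of the SSCiPSC libraries (0.0546 to 0.101). In fiPSC Uqcc2 was at 0.48 (adjusted p = 0.0141). That call was lost with quantile normalization (0.778), with the replicate block (0.0522) and without fiPSC replicate 1 (0.0727) or 3 (0.065). After the length correction Uqcc2 was called lower in fiPSC (-0.52, adjusted p = 0.00119).

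**Figure D4:**
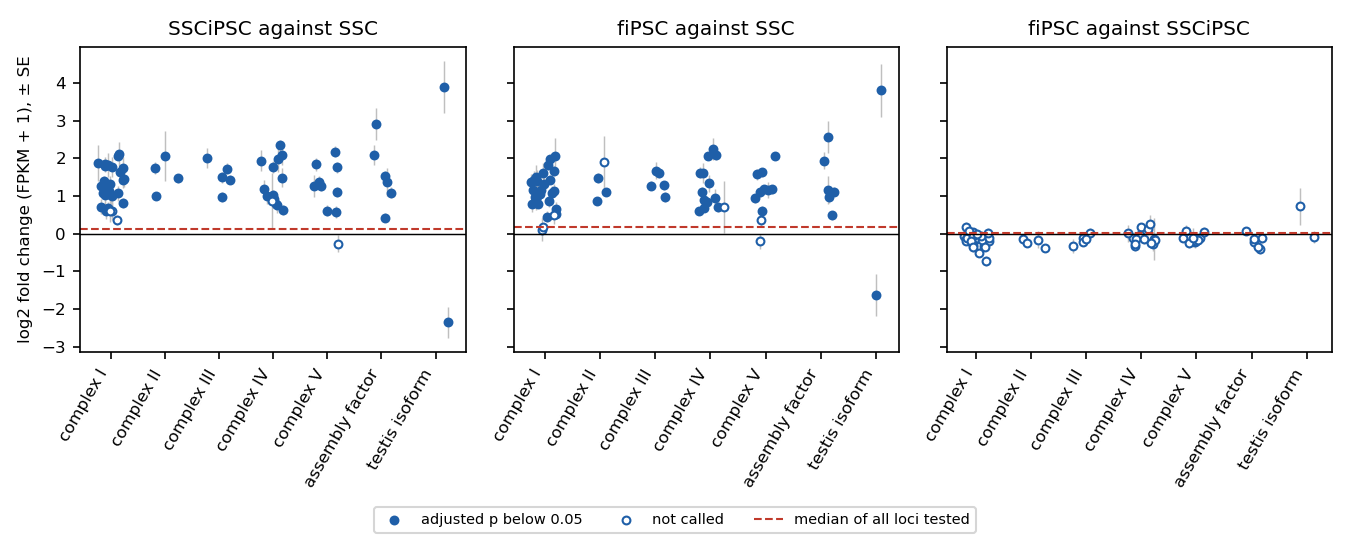
log2 fold change of FPKM + 1 with its SE (y axis) of each gene tested, by complex (x axis), in 3 comparisons; filled points passed an adjusted p of 0.05, open points did not, and the dashed line is the median of all loci tested. In both comparisons with SSC nearly all points lie above the dashed line, with the testis isoforms at both ends, and between fiPSC and SSCiPSC no point is filled.

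The median level of the 69 genes was 40.6 FPKM in SSC, 95.8 in SSCiPSC and 85.9 in fiPSC, and the median coefficient of variation between replicates was 16.2%, 11.3% and 5.57%. Summed over the genes with a locus of their own, each complex was higher in every iPSC library than in every SSC library. Complex I summed to 1036, 1268 and 1231 FPKM in SSC, 2893, 2617 and 2454 in SSCiPSC and 2379, 2274 and 2501 in fiPSC. The ratio of the means of SSCiPSC to SSC was 2.25 for complex I, 2.79 for complex II, 2.62 for complex III, 2.18 for complex IV and 2.84 for complex V. The summed FPKM of all loci was itself unequal, 842000 to 869000 in SSC and 1110000 to 1420000 in iPSC. As shares of the summed FPKM of protein-coding genes with their own locus, the rises were smaller. Complex I took 0.534% in SSC and 0.798% in SSCiPSC, and complex II 0.101% and 0.187%. For complexes III, IV and V these shares were 0.109% and 0.190%, 0.707% and 1.025%, and 0.362% and 0.682%. Complex II had the widest spread in SSC relative to its mean, 222 ± 85.3 FPKM (SD, n = 3), with Sdhc alone at 172 FPKM in replicate 3. All 69 genes together took 1.85% ± 0.119 of the summed FPKM of protein-coding genes with a locus of their own in SSC, 2.94% ± 0.232 in SSCiPSC and 2.85% ± 0.0683 in fiPSC.

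**Figure D5:**
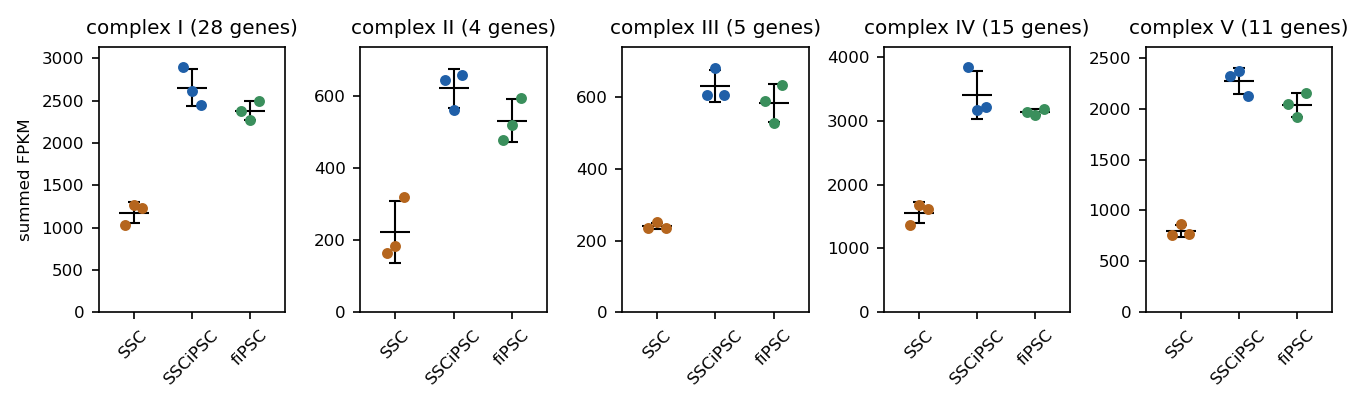
Summed FPKM of the genes of each complex with a locus of their own (y axis, from 0) in each library of the 3 groups (x axis), with the mean and SD as bars. In all 5 panels the SSC points lie below all iPSC points, and SSCiPSC and fiPSC points lie close together.

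Between fiPSC and SSCiPSC no gene of the respiratory chain or ATP synthase was called by limma, beside 0.0236% of all 33948 loci called higher and 0.0442% called lower, or 0.0118% and 0.0235% of protein-coding genes by their own locus. At an unadjusted p below 0.05, 11 genes passed, all lower in fiPSC, while 3988 of all 33948 loci passed in either direction. After the length correction 1 gene, Ndufb4, was called lower (-0.69, adjusted p = 0.0489). The SE of a log2 fold change had a median of 0.13, beside 0.18 for SSCiPSC and 0.14 for fiPSC against SSC. Of the 68 genes 56 had a negative fold change, and the median was -0.15, beside 0.01 over all loci tested. Among other protein-coding genes with a mean of at least 10 FPKM the median lay between -0.11 and -0.08 in the 4 bins of transcript length. In 22 of the 68 all fiPSC libraries lay below all SSCiPSC libraries and in 1 above, against 9.23% and 9.41% of all loci. With quantile normalization the median of the members was -0.06.

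The lowest fold changes between the 2 kinds of iPSC in complex I were those of Ndufb4 (-0.74 ± 0.14, limma adjusted p = 0.182) and Ndufs5 (-0.51 ± 0.11, adjusted p = 0.222). Sdhb was at 164, 147 and 146 FPKM in SSCiPSC and at 113, 120 and 119 in fiPSC, without overlap (-0.37 ± 0.10, adjusted p = 0.267). Ndufaf1, a complex I assembly factor, was at 43.0, 37.6 and 36.1 and at 26.8, 27.5 and 32.3 (-0.42 ± 0.13, adjusted p = 0.306). Cox5a (-0.33 ± 0.13), Cox6c (-0.29 ± 0.16), Uqcrq (-0.33 ± 0.18) and Atp5g3 (-0.22 ± 0.16) were likewise not called. Without the testis isoforms the highest values were those of Ndufa4l2 (0.27 ± 0.22), Ndufab1 (0.18 ± 0.13) and Cox4i1 (0.18 ± 0.10). The testis isoform Cox7b2 was at 0.72 ± 0.49 (limma adjusted p = 0.609). For a single gene an exact two-sided permutation test of 3 against 3 libraries cannot go below p = 0.1, the value that Ndufb4, Ndufs5 and Sdhb reached.

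Other genes of mitochondrial energy metabolism were taken from fixed lists. These lists were not compared by transcript length, and their counts with quantile normalization or the length correction are not given here. Of non-member genes with a mean of at least 10 FPKM, 65.6% under 1000 bases were called higher in SSCiPSC than in SSC. It was 58.5% from 1000 to 2000 bases, 45.8% from 2000 to 4000 and 30.7% for longer ones. Of 45 mitochondrial ribosomal proteins, which translate the subunits encoded in mitochondrial DNA, 37 were called higher in SSCiPSC than in SSC and 0 lower (median log2 fold change 1.11), and 36 were higher in fiPSC. Of all protein-coding genes by their own locus 34.3% were called higher and 28.8% lower in SSCiPSC, and 35.5% were higher in fiPSC. The strongest were Mrps31, with 7.34, 12.9 and 6.79 FPKM in SSC against 66.4, 60 and 65.8 in SSCiPSC, and Mrpl15, with 27.5, 52.9 and 43.2 and 223, 287 and 240. Of 21 assembly factors without the prefixes of the members, 13 were higher, 1 lower and 7 not called in SSCiPSC, beside the same 34.3% higher and 28.8% lower. The copper chaperone Cox17 rose by 2.55 ± 0.37 (limma adjusted p = 0.00183), while Ttc19, which clears fragments of the Rieske protein from complex III, was at 47.6, 45.2 and 33.6 FPKM in SSC but at 14.2, 13.2 and 15.6 in SSCiPSC (-1.48 ± 0.18, adjusted p = 0.000828).

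Pyruvate dehydrogenase and the citric acid cycle, which feed the chain, had 11 of 17 genes higher and 0 lower in SSCiPSC and 12 higher in fiPSC. Protein-coding genes by their own locus were called higher in 34.3% and lower in 28.8% of cases in SSCiPSC, and higher in 35.5% in fiPSC. Idh2, the mitochondrial NADP-dependent isocitrate dehydrogenase, was at 9.88, 10.3 and 24.6 FPKM in SSC, 123, 114 and 103 in SSCiPSC and 74.5, 77.9 and 89.1 in fiPSC. Citrate synthase, Cs, rose by 0.95 ± 0.16 (limma adjusted p = 0.00357). Pdk1, a kinase that inhibits pyruvate dehydrogenase, also rose, from 28.6, 33.1 and 22.2 FPKM to 139, 124 and 130 (2.2 ± 0.17, adjusted p = 0.000203).

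Of 7 inner membrane carriers and outer membrane channels 5 were higher, 1 lower and 1 not called in both kinds of iPSC. The shares among protein-coding genes by their own locus were 34.3% higher and 28.8% lower in SSCiPSC, and 35.5% and 30.2% in fiPSC. The outer membrane channel Vdac1 was at 25.7, 26.8 and 31.8 FPKM in SSC, 269, 299 and 313 in SSCiPSC and 270, 273 and 243 in fiPSC (3.34 ± 0.13 in SSCiPSC, limma adjusted p = 3.96e-05). The ADP/ATP carrier Slc25a5 rose by 2.37 ± 0.14 (adjusted p = 0.000109). Its germ cell homologue Slc25a31 fell from 47.2, 69.0 and 41.3 FPKM in SSC to 2.27, 2.57 and 2.46 in SSCiPSC and 2.22, 1.57 and 4.21 in fiPSC (-3.93 ± 0.23 in SSCiPSC, adjusted p = 9.28e-05).

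Electron carriers and the enzymes that feed ubiquinone had 9 of 13 genes higher and 0 lower in SSCiPSC, and 7 higher and 1 lower in fiPSC (Etfdh, -0.44 ± 0.14, limma adjusted p = 0.0449). For protein-coding genes by their own locus the shares were 34.3% higher and 28.8% lower in SSCiPSC, and 35.5% and 30.2% in fiPSC. Dhodh, which makes pyrimidines and reduces ubiquinone, was at 4.36, 3.11 and 5.08 FPKM in SSC, 38.7, 44.2 and 48.6 in SSCiPSC and 47.8, 45.5 and 49.6 in fiPSC. Gpd2, the mitochondrial glycerol phosphate dehydrogenase, rose by 2.93 ± 0.28 (adjusted p = 0.000372) in SSCiPSC. Cyct, the testis form of cytochrome c, was at 5.35, 19.0 and 9.53 FPKM in SSC, 63.3, 41.3 and 42.1 in SSCiPSC and 10.2, 10.8 and 12.8 in fiPSC. It was the one gene of these lists called between the 2 kinds of iPSC, a call lost in 7 of 16 alternatives, among them the replicate block (adjusted p = 0.187) and all 9 libraries in the fit (0.261).

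Regulators of these genes were read last. Of 10 with a locus, 7 were higher and 0 lower in SSCiPSC, and 7 were higher in fiPSC. Beside them, 34.3% of protein-coding genes by their own locus were higher and 28.8% lower in SSCiPSC, and 35.5% were higher in fiPSC. Nrf1, whose motif is described above, was at 20.1, 22.5 and 22.5 FPKM in SSC, 37.1, 45.3 and 40.0 in SSCiPSC and 35.4, 34.5 and 38.9 in fiPSC. The ETS factor Gabpa rose by 1.46 ± 0.13 (limma adjusted p = 0.00029) in SSCiPSC and Tfam, which packages and transcribes mitochondrial DNA, by 1.54 ± 0.18 (adjusted p = 0.000731). Esrrb, an estrogen-related receptor of pluripotent cells, was at 0.486, 0.689 and 0.716 FPKM in SSC, 221, 298 and 260 in SSCiPSC and 170, 179 and 195 in fiPSC. Yy1 was at 15, 13.5 and 16.9 in SSC and 17.6, 26.1 and 23.7 in SSCiPSC and was not called (0.53 ± 0.19, adjusted p = 0.0601).

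The remaining 25 of the 96 genes had no locus of their own. Of these, 20 lay only in loci shared with other genes or mostly outside the gene, among them Atp5b, the catalytic beta subunit of the ATP synthase, Ndufs3, Ndufs8, Uqcrh, Uqcrb and Cox8a, and Ndufb9 had no locus on its strand. When shared loci were counted too, 79 of 88 genes tested were higher in SSCiPSC and 78 in fiPSC, with 0 lower. In the same fits 26.2% of all loci were higher and 24.1% lower in SSCiPSC, and 28% and 23.7% in fiPSC. Among genes without a near-identical copy 44 of 47 were higher in SSCiPSC, and among those whose interval no other locus has it was 47 of 51 (both alternatives were added after seeing the data).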

How the data were processed

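RNA of 9 libraries was sequenced as paired ends. The authors aligned reads with TopHat2 2.0.9 and Bowtie2 2.1.0, after Trimmomatic 0.32, and estimated FPKM per locus with Cufflinks 2.2.1 and Cuffdiff, as the submitters' processing notes list. The deposited table of FPKM held 54914 loci, of which 1 had a blank value and was left out. The notes give build mm9, but 92.8% of the stranded loci overlapped protein-coding genes on their own strand at GRCm38 coordinates, against 38.3% and 37.9% after moving them by 1000000 bases, so GRCm38 (GENCODE annotation) was used and the printed gene names were not. No locus lay on mitochondrial DNA. The labels name Ribo-Zero and a stranded mRNA kit, the methods the mRNA kit alone. The labels give passage 10 to 11, and the methods give later passages.

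A gene was read from the locus of highest mean that covered at least 50% of it, lay at least 50% inside it and held no other protein-coding gene of that strand. Depth was estimated by taking the lowest FPKM values of lone loci without a strand, from 600 to 6000 bases long, as 1 fragment, and is approximate. Groups were compared with limma 3.58.1 (R 4.3.3, empirical Bayes with a trend) on log2(FPKM + 1), which understates changes of low genes, over loci with at least 1 FPKM in 3 of 6 libraries, with Benjamini-Hochberg adjustment over all loci and a threshold of 0.05. The fits were also run on simulated data. Those had a common spread per locus in both groups and few changed loci, unlike the libraries here. The run therefore does not measure the errors of these comparisons. Near-identical copies were sought with BLAST 2.17.0. Promoter windows came from RefSeq GRCm38.p6. Genes named were tissue isoforms with their partners, core subunits, the complex II genes and, per complex and comparison, the 2 highest and 2 lowest fold changes among genes of at least 10 FPKM. Atp5l, Ndufa9, Cox8b and the genes of the other lists were named after their values were seen. Members and lists were chosen with earlier results of these data known. Alternatives covered the pseudocount, filters, scaling, transcript length, the replicate block, locus rules and each library left out. One complex I gene is not reported here by name, but it is included in the counts, sums and medians.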

Additional observations from a re-analysis of the deposited data

Results flagged for a closer look

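Cyct, the testis form of cytochrome c, was singled out because its level differed between the 2 kinds of iPSC. Fibroblasts were not analysed here, so a change on reprogramming cannot be compared between the origins. It was higher in SSCiPSC than in SSC by a log2 fold change of 2.15 ± 0.42 (limma adjusted p = 0.00612), but in fiPSC against SSC the value was 0.15 ± 0.41 (adjusted p = 0.786). After the length correction these were 1.22 (adjusted p = 0.00807) and -0.75 (adjusted p = 0.0596). Without SSC replicate 1 they were 1.75 (adjusted p = 0.0105) and -0.25 (0.539), and without SSC replicate 2 they were 2.58 (0.00253) and 0.58 (0.133). The difference between them, fiPSC against SSCiPSC, was -2.0 ± 0.19 (adjusted p = 0.0269, 3 libraries each), with 10.2, 10.8 and 12.8 FPKM in fiPSC and 63.3, 41.3 and 42.1 in SSCiPSC. Of 16 alternatives 9 called it, with a log2 fold change from -2.11 to -1.80 in all of them. The call was lost with all 9 libraries in the fit (adjusted p = 0.261), with the replicate block (0.187), and when SSCiPSC replicate 2 or 3 or any of the fiPSC libraries was left out (0.116 to 0.212).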

How the results depend on the processing

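Of the 68 genes, 51 to 61 were called higher in SSCiPSC than in SSC when single libraries were left out, 58 with the replicate block, and 44 of 47 among genes without near-identical copies. For fiPSC against SSC these counts were 50 to 62, 59 and 42 of 47. The shares of all loci called with a library left out or with the replicate block are not given here. The counts under those settings therefore cannot be set against them. Genes without near-identical copies were read from the main fits, where 26.2% of all loci were higher in SSCiPSC and 28% in fiPSC. Between fiPSC and SSCiPSC 0 genes were called in every alternative run, including the replicate block, except for 1 gene with the length correction. Same-numbered libraries did not vary together (correlations of -0.236 to 0.0214), while differently numbered ones reached 0.196. Such correlations cannot exclude that equal numbers share a source, and nothing in the labels says that they do.

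Of the alternatives, the values of single genes were computed for the genes named by the rule, and other genes are not listed here. Of these, some turned negative in SSCiPSC against SSC with quantile normalization, namely Atp5d (-0.25), Atp5mpl (-0.41), Cox4i1 (-0.38), Cox6a1 (-0.48), Cox6b1 (-0.47), Ndufa3 (-0.54), Ndufv1 (-0.39), Uqcc2 (-0.10) and Uqcr11 (-0.048), and with the length correction, namely Atp5d (-0.044), Atp5mpl (-0.35), Cox4i2 (-0.031), Cox5b (-0.062), Cox6a1 (-0.36), Cox6b1 (-0.18), Ndufa3 (-0.43), Ndufv1 (-0.15), Uqcc2 (-0.61) and Uqcr11 (-0.11). In fiPSC against SSC these were Atp5d (-0.13), Atp5mpl (-0.53), Cox4i1 (-0.15), Cox6a1 (-0.41), Cox6b1 (-0.47), Ndufs5 (-0.19) and Ndufv1 (-0.45) with quantile normalization, and Atp5d (-0.00083), Atp5mpl (-0.57), Cox4i2 (-0.15), Cox6a1 (-0.36), Cox6b1 (-0.25), Ndufs5 (-0.79), Ndufv1 (-0.33), Uqcc2 (-0.52) and Uqcr11 (-0.064) with the length correction. Values above 0 lost their call for 6 genes with quantile normalization (Atp5c1, Atp5o, Cox5b, Ndufs7, Sdha and Sdhc) and 2 with the length correction (Cox4i1 and Ndufs7) in SSCiPSC, and for 7 (Atp5c1, Atp5o, Cox5b, Ndufs7, Sdha, Uqcc2 and Uqcr11) and 2 (Cox5b and Ndufs7) in fiPSC. Between fiPSC and SSCiPSC the values near 0 of Atp5d (-0.012) and Uqcr11 (-0.038) turned with median-ratio scaling. With single libraries left out, Atp5d ranged from -0.092 to 0.12, Ndufc2 from -0.012 to 0.15 and Uqcr11 from -0.076 to 0.12 in that comparison, and Ndufs5 from -0.11 to 0.45 in fiPSC against SSC. The cause was not tested.

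The shallow SSC libraries limit values near 1 FPKM, such as those of Cox4i2, Cox8b and Cox6b2 in SSC. A library left out leaves 2 in its group.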
